A study of Mus musculus with 12 samples.

Results

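The transcripts described here are those of Nrf2, encoded by Nfe2l2, and of 9 genes known as its antioxidant targets: Nqo1, Gclc, Gclm, Srxn1, Txnrd1, Hmox1, Gsr, G6pdx and Osgin1. The 10 genes were chosen by name and found through their Entrez identifiers, and 10 of 10 were present among the 27179 genes of the count table. All 10 are protein-coding, and all 10 passed the filter on low counts. Their positions are given on mm10 (GRCm38) from GENCODE M21. Bulk RNA-seq was performed on livers of male mice in 4 groups of 3, with 1 library per mouse. Mice ate a chow (CD) or a low-protein (LPD) diet from a week before injection onward, and received empty vector (Vec) or plasmids that carry human c-MET together with β-catenin lacking its N-terminus, which makes it constitutively active. The plasmids, in which an EF1α promoter drives the oncogenes, were delivered by hydrodynamic tail vein injection with Sleeping Beauty transposase (SB-HTVI), so that oncogenes enter only some hepatocytes and the liver sample mixes them with other cells. All groups were harvested when the chow-fed oncogene mice reached their end point. The groups with c-MET/β-catenin are called CD oncogene and LPD oncogene, and the controls CD Vec and LPD Vec. Mice of this diet experiment were 8 weeks old at the start of feeding, within the 6 to 8 weeks of the methods, which give the strain as C57/Bl3, and another passage of the study names a mixed 129/Ola and C57BL/6 background for this tumor model.

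Nrf2 is a transcription factor that is bound by Keap1 in unstressed cells, ubiquitinated by a Cul3 ligase and degraded. Oxidants and electrophiles modify Keap1, whereupon Nrf2 accumulates, pairs with a small Maf protein and binds antioxidant response elements near its target genes, where Bach1 can compete with it. Because this control acts largely on the Nrf2 protein, the level of its own mRNA is not a measure of its activity. The targets make and recycle glutathione, run the thioredoxin system, break down heme and supply NADPH. In liver the pathway is known for protecting hepatocytes from reactive drugs, and mutations that keep it active occur in hepatocellular carcinoma.

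The antioxidant response element has a core that is written TGACNNNGC, and its letters were looked for on both strands of the RefSeq promoter windows (GRCm38.p6), which run from 250 bases before to 50 bases after a start site. Of the 10 genes 7 had a window, and 5 of these held a match: Nfe2l2, Gclm, Srxn1, Txnrd1 and G6pdx. No match lay in the windows of Nqo1 and Osgin1, and Gclc, Hmox1 and Gsr had no entry. Across all genes with a window 14.0% held a match, and 16.7% of the genes tested for expression did. The stretches below are from the 3 genes that both held a match and rose with the oncogenes on CD, printed on the strand of the gene. Capitals mark the match, which in each lies on the opposite strand and so reads GCNNNGTCA here.
Srxn1: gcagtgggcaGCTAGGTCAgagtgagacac
Txnrd1: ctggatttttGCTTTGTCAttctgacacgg
G6pdx: aggcgggtcaGCTCAGTCAaagcacacgcc

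The Srxn1 stretch is chr2:152105542-152105571 on the plus strand, with its match at bases 29 to 37 of the transcript. The Txnrd1 stretch is chr10:82859104-82859133 on the plus strand, with its match from -92 to -84 of 1 of 3 annotated start sites. The G6pdx stretch is chrX:74428918-74428947 on the minus strand, with its match from -57 to -49. None of the matches in the 5 windows held TGACTCA, the heptamer bound by AP-1, which shares its opening TGAC with the core. The rest of each window was not searched for it. A match is a description of letters, and binding was not measured.

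Depth was 19476209 to 31990267 counts per library. Levels are CPM, counts per 1000000 counts of the library, scaled by the trimmed mean of M values (TMM), and differences are log2 fold changes from edgeR's quasi-likelihood test fitted to all 12 libraries. Genes with a Benjamini-Hochberg adjusted p under 0.05 over 13947 genes were called. Albumin had group means of 61801 to 74337 CPM, a level typical of liver, and the hepatocyte label holds only for bulk liver, since markers of other cells were present. Summed levels of 6 recruited macrophage markers were 4.11 to 4.64 CPM in CD Vec and 20.3 to 36.5 CPM in CD oncogene. A header line of the count table holds dataset numbers in 3 runs that the labels do not explain, and CD oncogene replicates 1 and 2 are alone in theirs. A fit with a term for runs therefore takes the CD oncogene level from replicate 3 alone. Any p from that fit rests on the spread among the other libraries. The run that holds all 4 groups has CD Vec replicate 3 and CD oncogene replicate 3 as its only CD libraries, so values within it are printed here with no p. Another run holds CD Vec replicates 1 and 2 with LPD Vec replicate 1, and diet in Vec livers was not compared within it.

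Per kilobase of exon, the levels in CD Vec livers were ordered from Osgin1 (74.0 ± 37.1 CPM per kb, SD, n = 3) and Gclc (64.0 ± 20.9) down to Nqo1 (3.73 ± 1.68) and G6pdx (1.91 ± 1.03). Osgin1 and Gclc overlapped in range, as did Nqo1 and G6pdx. Between them lay Gsr, Gclm, Txnrd1 and Nfe2l2 at means of 26.1 to 19.2 CPM per kb, each overlapping its neighbour in the order, and then Srxn1 (12.6 ± 3.04) and Hmox1 (11.4 ± 0.736), which also overlapped. In CD oncogene livers Srxn1 stood at 69.0 ± 31.0 CPM per kb, in the third place of the order instead of the seventh, and its range overlapped those of Osgin1, Gclc, Hmox1 and Gsr, so that its place among them was not fixed.

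**Figure D1:**
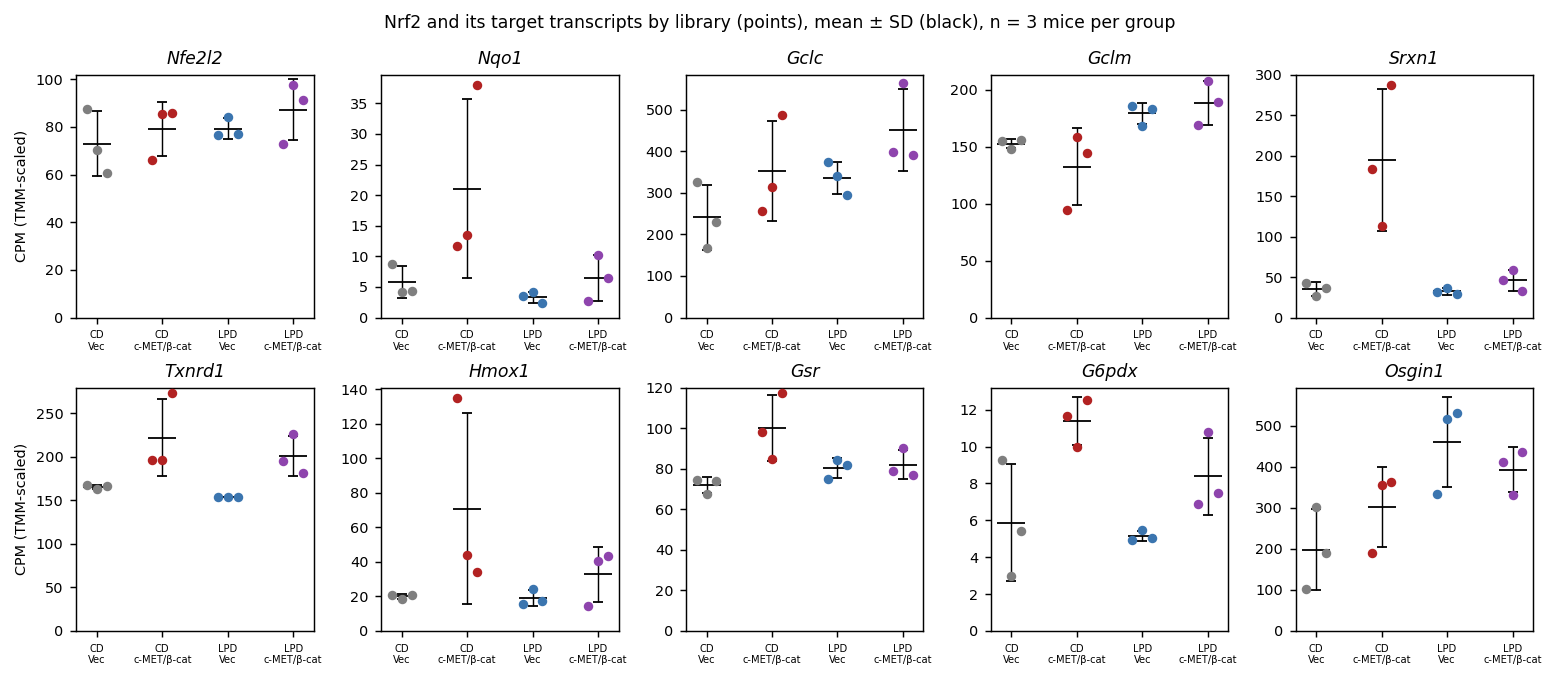
Level of each transcript in CPM scaled by TMM (vertical axes, starting at 0) in the 4 groups; points are libraries, each from 1 mouse, and black marks are the mean ± SD (n = 3). Srxn1 lies between 113 and 287 CPM in CD oncogene livers and at or below 58.6 CPM in every library of the other groups, whereas Nfe2l2 lies between 60.9 and 97.5 CPM throughout.

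To see how the oncogenes moved this pathway on the standard diet, oncogene and Vec livers were compared on CD. On CD 6 targets rose: Srxn1, Nqo1, Hmox1, G6pdx, Gsr and Txnrd1. None fell, and Nfe2l2 itself, Gclc, Gclm and Osgin1 did not pass the test. The 6 of 10 called higher stood against 18.7% of all genes tested that were called higher and 35.4% that were called in either direction. The same 6 genes had an unadjusted p under 0.05, against 45.1% of all genes. They were also the genes whose groups did not overlap, all in the higher direction, which held for 22.2% of all genes, and none was without overlap in the lower direction, which held for 20.4%. The median log2 fold change of the 10 genes was 0.58, against -0.01 over all genes tested.

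Nfe2l2 (Entrez 18024, chromosome 2 from 75675513 to 75704663), the gene of Nrf2, measured 87.6, 70.4 and 60.9 CPM in CD Vec and 66.2, 85.5 and 85.8 CPM in CD oncogene. It measured 76.5, 84.3 and 76.8 CPM in LPD Vec and 73.0, 97.5 and 91.2 CPM in LPD oncogene. All 4 groups overlapped. The log2 fold change was 0.12 on CD (95% interval -0.23 to 0.47) and 0.14 on LPD (-0.21 to 0.49), and the injection by diet interaction was 0.02 (-0.47 to 0.51). These intervals leave out a doubling of the mRNA in either comparison.

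Srxn1 (Entrez 76650, chromosome 2 from 152105524 to 152111376) encodes sulfiredoxin, which restores peroxiredoxins after overoxidation. It measured 43.1, 26.2 and 36.9 CPM in CD Vec and 183, 113 and 287 CPM in CD oncogene, so that the lowest oncogene library lay well above the highest Vec library. Its log2 fold change on CD was 2.46 (SE 0.32, adjusted p = 0.000222, 5.49-fold). The call held without any single library, at values of 2.06 to 2.73. The value within the run that holds all 4 groups, 1 library against 1, was 2.95.

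Nqo1 (Entrez 18104, chromosome 8 from 107388225 to 107403205) encodes a quinone reductase that detoxifies quinones and is the target most used as a readout of Nrf2. It measured 8.81, 4.21 and 4.37 CPM in CD Vec and 11.7, 13.5 and 37.9 CPM in CD oncogene. The groups did not overlap, but a single library, replicate 3, lay far above the other oncogene libraries. Nqo1 differed by 1.86 on the log2 scale (SE 0.54, adjusted p = 0.0197, 3.62-fold). Its value was 1.11 without CD oncogene replicate 3 (adjusted p = 0.0907), and the call also failed without CD Vec replicate 2 (1.66, adjusted p = 0.0721) and without CD Vec replicate 3 (1.69, adjusted p = 0.0646). In the run that holds all 4 groups, which keeps the high library, it was 3.10.

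Gclc (Entrez 14629, chromosome 9 from 77754535 to 77794489) and Gclm (Entrez 14630, chromosome 3 from 122245487 to 122267215) encode the catalytic and modifier subunits of glutamate cysteine ligase, the rate-limiting step of glutathione synthesis. Gclc measured 325, 168 and 230 CPM in CD Vec and 256, 314 and 487 CPM in CD oncogene. Gclm measured 155, 148 and 155 CPM in CD Vec and 94.0, 158 and 144 CPM in CD oncogene. Neither subunit separated the groups. The log2 fold change of Gclc was 0.55 (SE 0.27, adjusted p = 0.139), and leaving out 1 library moved it from 0.24 without CD oncogene replicate 3 (adjusted p = 0.510) to 0.82 without CD Vec replicate 1, where it passed the test (adjusted p = 0.0440). It was 0.34 without CD Vec replicate 2 (adjusted p = 0.366), and it passed under a scaling by totals alone (0.83, adjusted p = 0.0356). It was 1.07 within the run that holds all 4 groups. That of Gclm was -0.21 (SE 0.17, adjusted p = 0.365), and it turned to 0.08 under a scaling by totals alone.

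Gsr (Entrez 14782, chromosome 8 from 33653238 to 33698162) encodes glutathione reductase, which regenerates reduced glutathione with NADPH. It measured 74.3, 67.4 and 74.1 CPM in CD Vec and 98.3, 85.1 and 118 CPM in CD oncogene. The rise was small but separated the groups, at 0.48 on the log2 scale (SE 0.13, adjusted p = 0.0121, 1.39-fold), and it was called without any single library at 0.35 to 0.58. It was not called in the fit to the 2 groups compared (0.46, adjusted p = 0.0832) or with a term for runs (0.64, adjusted p = 0.0594). Within the run that holds all 4 groups it was 0.65.

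Txnrd1 (Entrez 50493, chromosome 10 from 82833951 to 82897724) encodes the cytosolic thioredoxin reductase. It measured 168, 163 and 166 CPM in CD Vec and 196, 196 and 273 CPM in CD oncogene. Replicate 3 was again the highest. Txnrd1 rose by 0.42 on the log2 scale (SE 0.14, adjusted p = 0.0369, 1.34-fold). Without CD oncogene replicate 3 it was 0.24 (adjusted p = 0.156). The call was also lost without any 1 of the CD Vec libraries, the LPD Vec libraries or LPD oncogene replicate 1, at values of 0.40 to 0.43 and adjusted p from 0.0520 to 0.0750, and within the run that holds all 4 groups the value was 0.71.

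Hmox1 (Entrez 15368, chromosome 8 from 75093618 to 75100593) encodes heme oxygenase, which breaks down heme and is expressed by hepatocytes and by macrophages that clear red cells. It measured 20.6, 18.5 and 20.9 CPM in CD Vec and 135, 43.9 and 34.0 CPM in CD oncogene. All oncogene libraries exceeded all Vec libraries, and replicate 1 stood far above the rest. The log2 fold change was 1.83 (SE 0.51, adjusted p = 0.0165, 3.55-fold), and it was 0.96 without CD oncogene replicate 1 (adjusted p = 0.0755) and 1.77 without CD Vec replicate 2 (adjusted p = 0.0535). With a term for runs, where replicate 3, the lowest of the 3 for Hmox1, sets the CD oncogene level, it was 0.60. Within the run that holds all 4 groups it was 0.69.

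The library with the highest Hmox1 also had the highest sums of neutrophil, erythroid, hepatocyte, stellate cell and cholangiocyte markers of all 12 libraries. Sums of the 5 neutrophil markers were 17.8 CPM in CD oncogene replicate 1, 7.34 and 6.85 CPM in replicates 2 and 3, and 3.30 to 5.21 CPM in CD Vec. The defining neutrophil marker Ly6g was at 0 in all libraries on CD. On CD 2 of 3 tested neutrophil markers, S100a8 and S100a9, were called higher. Sums of the 5 erythroid markers were 268, 74.6 and 125 CPM in CD oncogene and 169 to 221 CPM in CD Vec. Most of that sum was Alas2, which was not called (-0.81, adjusted p = 0.0818). Of 4 tested erythroid markers 3 were called higher on CD, as were 18.7% of all genes, and 0 were called with the oncogenes on LPD. For diet in oncogene livers 3 were lower, against 11.3% of all genes, and in the interaction 2, against 4.42%. The hemoglobin genes Hbb-bs and Hba-a1 were among those called higher on CD and lower on LPD than on CD in oncogene livers. Hbb-bs means were 8.72 CPM in CD Vec and 34.0 CPM in CD oncogene, and counts of these genes, which have close copies, are uncertain. Macrophage marker sums ran in the order of Hmox1 in some groups and not in CD oncogene. Sums of recruited macrophage markers were 20.3, 23.6 and 36.5 CPM in CD oncogene replicates 1, 2 and 3, lowest where Hmox1 was highest. All 6 were called higher on CD. These sums ran in the order of Hmox1 in LPD Vec (2.78, 4.86 and 2.82 CPM) and LPD oncogene (6.60, 6.95 and 8.53 CPM), but not in CD Vec. Sums of Kupffer cell and macrophage markers were 331, 260 and 433 CPM in the CD oncogene replicates, with 4 of 10 called higher on CD. In CD Vec they were 196, 129 and 277 CPM, in the order of Hmox1. That order also held in LPD Vec (189, 235 and 224 CPM) and LPD oncogene (258, 372 and 462 CPM). With the oncogenes on LPD 10 of 10 Kupffer markers had values above 0, and 0 were called. An unadjusted p under 0.05 was found for 8 of them there, against 11.1% of all genes. The part of these cells in the level of Hmox1 was not tested, and in bulk liver fewer cells of a type and less RNA per cell cannot be told apart.

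G6pdx (Entrez 14381, chromosome X from 74409483 to 74428880) encodes glucose-6-phosphate dehydrogenase, which opens the pentose phosphate pathway and supplies NADPH. It measured 9.27, 2.96 and 5.42 CPM in CD Vec and 11.6, 9.95 and 12.5 CPM in CD oncogene, a narrow but complete separation. G6pdx rose by 0.95 on the log2 scale (SE 0.32, adjusted p = 0.0379, 1.93-fold). The call was lost in 9 of the 12 fits that leave out a library: CD Vec replicates 2 and 3, each CD oncogene library, each LPD Vec library and LPD oncogene replicate 3. In these the value was 0.62 to 1.03 and the adjusted p 0.0506 to 0.0984. Over all 12 such fits the value reached 1.44 and the adjusted p was as low as 0.00404. Exons of G6pdx overlap those of Ikbkg on the opposite strand by 278 bases, and Ikbkg was not called (0.27, SE 0.14, adjusted p = 0.160). For G6pdx the value was 1.20 within the run that holds all 4 groups, and it was not called with a term for runs (adjusted p = 0.265).

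Osgin1 (Entrez 71839, chromosome 8 from 119425882 to 119446257) encodes an oxidative stress-induced growth inhibitor. It measured 103, 301 and 190 CPM in CD Vec and 190, 355 and 363 CPM in CD oncogene, with wide spread in both groups. The log2 fold change was 0.61 (SE 0.35, adjusted p = 0.200). Leaving out 1 library moved it from 0.31 without CD Vec replicate 1 (adjusted p = 0.474) to 1.04 without CD Vec replicate 2, the highest Vec library, where it passed the test (adjusted p = 0.0393). It was 0.92 within the run that holds all 4 groups.

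**Figure D2:**
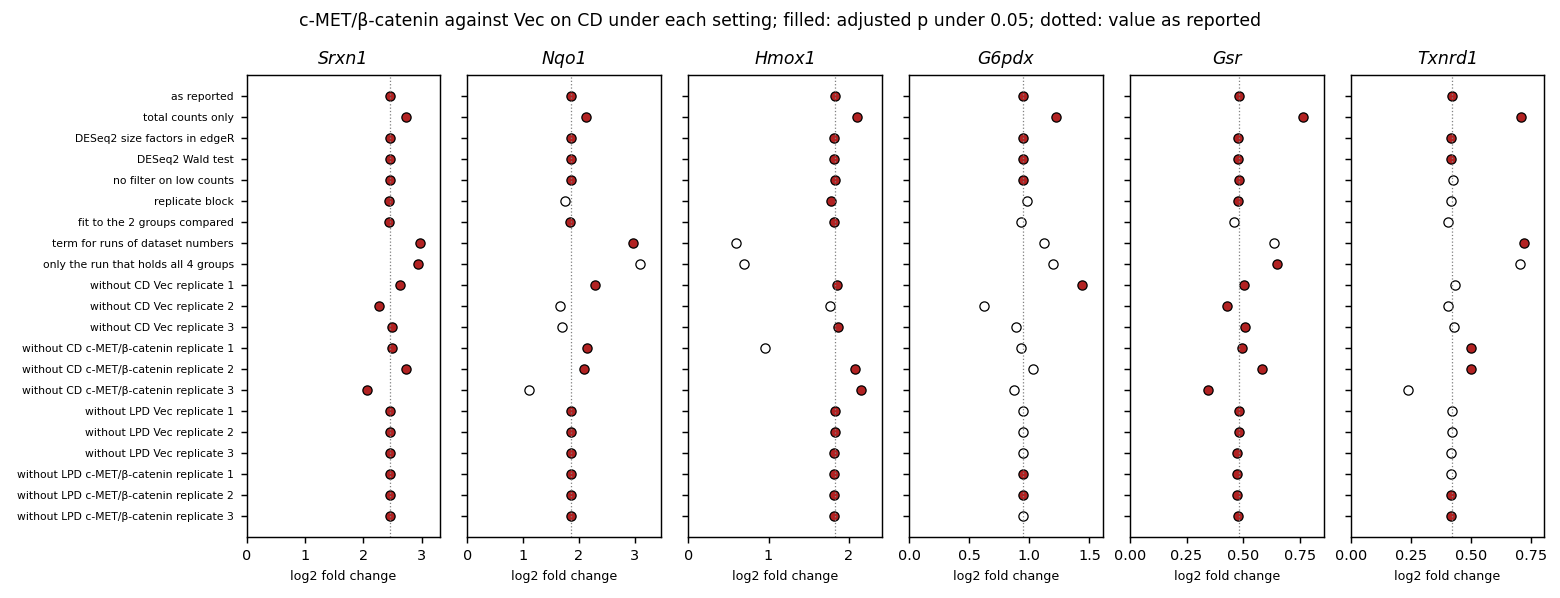
Log2 fold change of the 6 called targets, oncogenes against vector on CD (horizontal axes, each starting at 0), under each setting named on the left; filled points have an adjusted p under 0.05 and the dotted line is the value as reported. The fill in the run that holds all 4 groups rests on the spread of other groups, since it has 1 CD library per group. With a term for runs, replicate 3 alone sets the CD oncogene level. Srxn1 stays filled at 2.06 to 2.97 in every setting, whereas Hmox1 falls to 0.96 without CD oncogene replicate 1 and Nqo1 to 1.11 without replicate 3.

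The same injection was then compared on LPD, in separate libraries. None of the 10 genes was called by edgeR's quasi-likelihood test, against 1.32% of all genes in either direction and 1.15% in the higher, and DESeq2 called 0. At an unadjusted p under 0.05 there were 2, against 11.1% of all genes: Txnrd1 and G6pdx. Txnrd1 measured 154, 154 and 154 CPM in LPD Vec and 196, 226 and 182 CPM in LPD oncogene, which did not overlap (log2 fold change 0.39, SE 0.14, adjusted p = 0.299). The difference for Txnrd1 on LPD was close to that on CD, and the interaction was -0.04 (95% interval -0.47 to 0.40).

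G6pdx measured 4.94, 5.45 and 5.03 CPM in LPD Vec and 6.89, 10.8 and 7.48 CPM in LPD oncogene, again without overlap (0.71, SE 0.32, adjusted p = 0.451). Gclc also separated the groups, at 373, 340 and 296 CPM in LPD Vec against 397, 564 and 391.9 CPM (0.42, SE 0.27, adjusted p = 0.658). These 3 genes without overlap stood against 13.5% of all genes in the higher direction. Srxn1 measured 31.5, 37.1 and 29.0 CPM in LPD Vec and 46.3, 58.6 and 32.9 CPM in LPD oncogene, which overlapped (0.50, SE 0.31, adjusted p = 0.648). Leaving out 1 library gave 0.28 to 0.69 for Srxn1 and 0.23 to 0.52 for Gclc, each lowest without LPD oncogene replicate 2.

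Nqo1 measured 3.55, 4.10 and 2.36 CPM in LPD Vec and 2.74, 10.2 and 6.38 CPM in LPD oncogene. The groups overlapped, and the interval of its log2 fold change ran from -0.24 to 2.16. Leaving out 1 library moved the value of 0.96 from 0.45, without LPD oncogene replicate 2, to 1.31. Hmox1 measured 15.7, 24.2 and 17.3 CPM in LPD Vec and 14.5, 40.3 and 43.5 CPM in LPD oncogene, with an interval from -0.31 to 1.88. Gsr differed least, at 75.2, 84.4 and 81.9 CPM against 79.2, 90.2 and 77.0 CPM (0.03, interval -0.25 to 0.31). The median log2 fold change of the 10 genes on LPD was 0.41, against 0.01 over all genes.

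The 2 diets were compared next within the oncogene livers, using the same oncogene libraries. The paper reports a lower tumor burden on LPD at this time of harvest. Diet and the amount of tumor thus cannot be told apart in this comparison. By edgeR, Srxn1 and Nqo1 were called lower on LPD than on CD, and none was called higher. These 2 of 10 stood against 11.3% of all genes called lower, 8.66% called higher and 20.0% called in either direction. Both were also without overlap, as were 20.1% of all genes in the lower direction, and Gclm was without overlap in the higher direction, as were 19.2%. Srxn1 fell from 194 ± 87.4 to 45.9 ± 12.9 CPM (SD, n = 3 each), which is -2.08 on the log2 scale (SE 0.32, adjusted p = 0.00153, 4.23-fold). The call held without any single library, at -2.35 to -1.68, and the value within the run that holds all 4 groups was -2.64.

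Nqo1 was 21.0 ± 14.6 CPM on CD and 6.46 ± 3.75 CPM on LPD, with 11.7 CPM as the lowest CD library and 10.2 CPM as the highest LPD library. On the log2 scale Nqo1 differed by -1.69 (SE 0.53, adjusted p = 0.0440). Without CD oncogene replicate 3 it was -0.95 (adjusted p = 0.179), and without LPD oncogene replicate 1 it was -1.33 (adjusted p = 0.122). It was also not called without LPD oncogene replicate 3, CD Vec replicate 3 or any 1 of the LPD Vec libraries, at -1.70 to -1.68 and adjusted p of 0.0523 to 0.119. It was -2.54 within the run that holds all 4 groups.

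The remaining genes did not pass the test for diet in oncogene livers, 3 of them with an unadjusted p under 0.05, and unadjusted p counted 5 of 10 against 33.7% of all genes. Gclm measured 94.0, 158 and 144 CPM on CD and 169, 207 and 189 CPM on LPD, with no overlap and in the direction opposite to Srxn1 (0.51, SE 0.17, adjusted p = 0.0523). It was called without CD oncogene replicate 2 (0.66, adjusted p = 0.0284), without CD Vec replicate 2 (0.51, adjusted p = 0.0489) and by DESeq2 (0.50, adjusted p = 0.0337). Over the 12 fits that leave out a library, Gclm ran from 0.32 to 0.66 and its adjusted p by edgeR from 0.0284 to 0.155. Gsr (-0.29, SE 0.13, adjusted p = 0.133) and Hmox1 (-1.11, SE 0.50, adjusted p = 0.139) were the others. Leaving out 1 library moved Gsr between -0.39 and -0.15, at adjusted p of 0.0568 to 0.412. The value for Hmox1 was -0.25 without CD oncogene replicate 1 (adjusted p = 0.710).

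**Figure D3:**
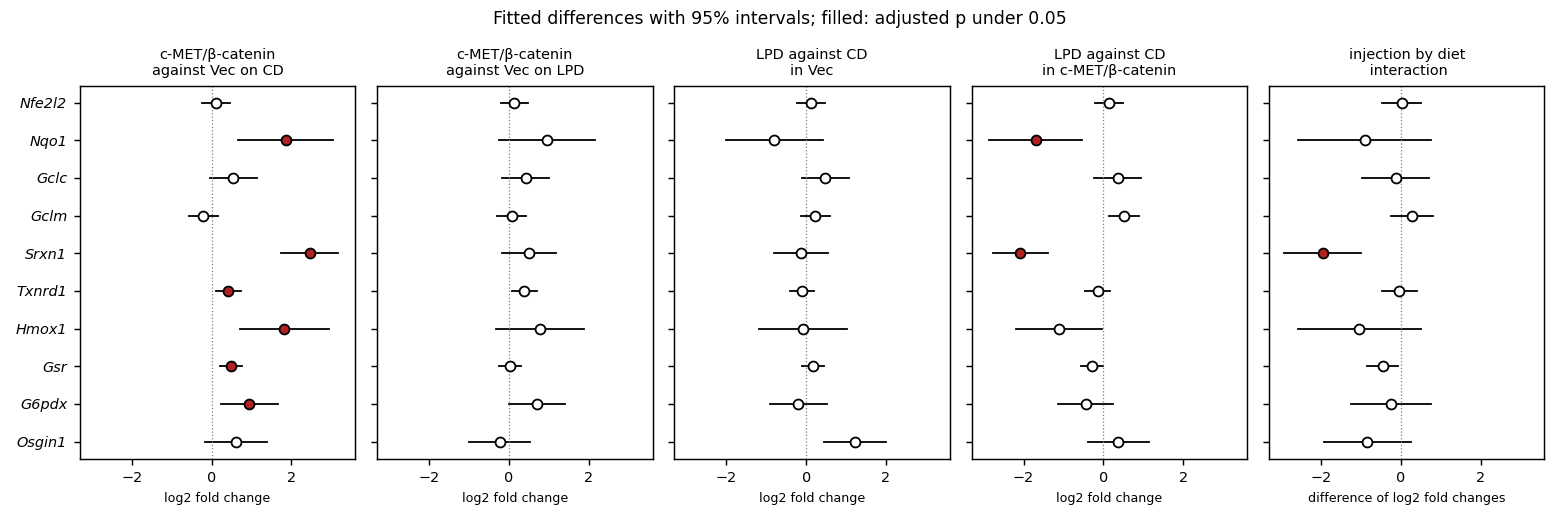
Fitted differences of the 10 transcripts with 95% intervals (horizontal axes, log2 scale) for the 4 comparisons and the interaction; filled points have an adjusted p under 0.05. On CD 6 points are filled to the right of 0, on LPD none, and for diet in oncogene livers Srxn1 (-2.08) and Nqo1 (-1.69) are filled to the left.

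The interaction, the log2 fold change of the injection on LPD minus that on CD, tests whether the effect of the oncogenes differed between diets. Srxn1 was the only 1 of the 10 genes called, at -1.96 (SE 0.44, 95% interval -2.92 to -1.0, adjusted p = 0.0221), against 4.42% of all genes called lower, 4.49% called higher and 8.91% in either direction. At an unadjusted p under 0.05 there were 2, Srxn1 and Gsr, against 25.8% of all genes. The call was lost without LPD Vec replicate 2 (-1.86, adjusted p = 0.0660) and without LPD oncogene replicate 3 (-1.76, adjusted p = 0.0579), and the value within the run that holds all 4 groups was -2.47. For the other 5 targets called on CD a difference between diets was not shown: the interaction was -0.90 for Nqo1 (interval -2.56 to 0.77), -1.04 for Hmox1 (-2.59 to 0.50), -0.45 for Gsr (-0.84 to -0.06, adjusted p = 0.139), -0.24 for G6pdx (-1.23 to 0.75) and -0.04 for Txnrd1. The value of Nqo1 was -0.16 without CD oncogene replicate 3, and that of Hmox1 was -0.18 without CD oncogene replicate 1. Where replicate 3 alone sets the CD oncogene level, Nqo1 was -1.89 with a term for runs and -2.10 within the run that holds all 4 groups. The median over the 10 genes was -0.35, against 0.02 over all genes. The interaction and the 4 comparisons share libraries, so they are not independent of each other. Nor does the interaction separate diet from the amount of tumor.

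In Vec livers, where no oncogene was given, diet moved none of the 10 genes past the threshold by edgeR, against 0.308% of all genes in either direction and 0.186% in the higher. DESeq2 called 1, Osgin1, which was also the only 1 with an unadjusted p under 0.05, as were 9.87% of all genes. Osgin1 measured 103, 301 and 190 CPM in CD Vec and 335, 515 and 530 CPM in LPD Vec. Every LPD library exceeded every CD library, at 1.22 on the log2 scale (SE 0.36, 95% interval 0.44 to 2.0, adjusted p = 0.199 by edgeR and 0.0286 by DESeq2). It was 1.45 within the run that holds all 4 groups. Gclm and Gsr were also without overlap in the higher direction, as were 8.13% of all genes, and Nqo1 and Txnrd1 in the lower, as were 9.02%.

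Other genes that set the activity of Nrf2 were followed through 11 regulators. On CD 3 of 11 rose with the oncogenes, 1 fell and 7 did not pass the test, and these 4 of 11 are close to the 35.4% of all genes called in either direction. The small Maf partners Mafk (0.84, SE 0.13, adjusted p = 0.000566) and Maff (1.54, SE 0.36, adjusted p = 0.00618) rose. Sqstm1, which encodes the autophagy receptor p62 that can sequester Keap1, rose from 389 ± 35.0 to 579 ± 118 CPM (0.57, SE 0.17, adjusted p = 0.0232). It was not called without CD Vec replicate 1, CD Vec replicate 3 or CD oncogene replicate 3, at 0.41 to 0.56 and adjusted p of 0.0576 to 0.0924.

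Bach1, the repressor that competes for the same elements, fell from 63.2 ± 7.31 to 37.4 ± 7.53 CPM (-0.76, SE 0.15, adjusted p = 0.00212). With a term for runs the calls of Bach1 (-0.90, adjusted p = 0.0627), Mafk (0.74, adjusted p = 0.0769), Maff (1.46, adjusted p = 0.0760) and Sqstm1 (0.88, adjusted p = 0.0722) were lost. The regulators not called on CD were Keap1 (0.28, adjusted p = 0.0716), Gsk3b (0.56), Rbx1 (0.09), Mafg (-0.07), Btrc (-0.19), Cul3 (-0.23) and Nfe2l1 (-0.26), with log2 fold changes given.

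None of the 11 regulators was called for the injection on LPD by edgeR, and 0 had an unadjusted p under 0.05, against 1.32% and 11.1% of all genes. Between diets in oncogene livers 2 of the 11 were lower on LPD, near the 11.3% of all genes called lower. Mafk was 34.1 ± 3.12 CPM on CD and 18.6 ± 2.12 CPM on LPD (-0.88, SE 0.13, adjusted p = 0.00135). Keap1, the sensor that holds Nrf2 down, was 66.4 ± 8.09 CPM on CD and 49.3 ± 3.24 CPM on LPD (-0.43, SE 0.11, adjusted p = 0.0180). The Keap1 call was lost without CD oncogene replicate 3 (-0.36, adjusted p = 0.0584), LPD oncogene replicate 1 (-0.39, adjusted p = 0.0716) or LPD oncogene replicate 3 (-0.40, adjusted p = 0.0744).

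**Figure D4:**
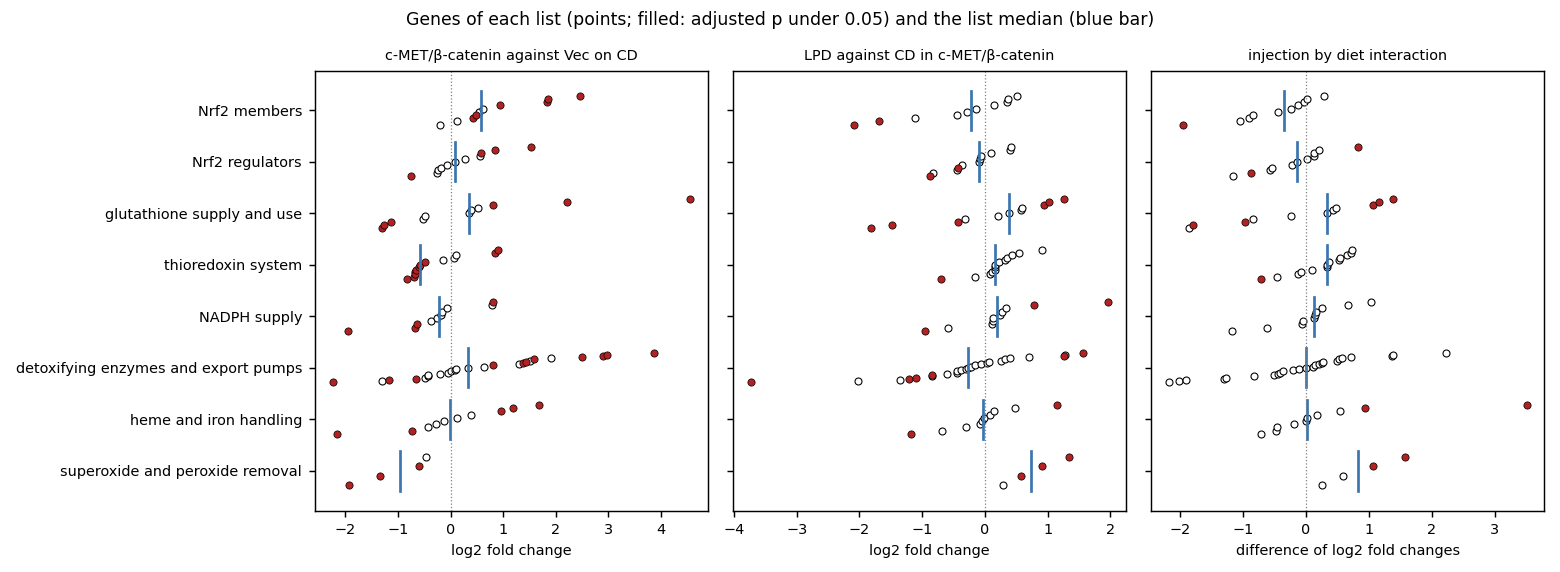
Log2 fold changes of the genes in 8 lists (points, filled at an adjusted p under 0.05; blue bars are list medians) for oncogenes against vector on CD, LPD against CD in oncogene livers and the interaction. On CD the Nrf2 genes have filled points only to the right of 0, with a median of 0.58, whereas the thioredoxin system has 2 filled to the right and 7 to the left, with a median of -0.58.

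The other genes of the glutathione, thioredoxin, NADPH, detoxification, heme and peroxide systems did not share 1 direction on CD, where 18.7% of all genes were called higher and 16.7% lower. Of 11 tested genes of glutathione supply and use, 3 rose and 3 fell. Slc7a11, the cystine importer that feeds glutathione synthesis and is a known Nrf2 target, had 0 to 2 counts per library in CD Vec and 1.79 ± 0.692 CPM in CD oncogene. It was at least 11.2-fold higher against a floor of 3 counts per library, and since only its oncogene libraries carried it past the filter on low counts, its call among the 3 is no independent support. Gpx1, the main glutathione peroxidase of liver, fell from 2170 ± 672 to 874 ± 172 CPM (-1.31, SE 0.23, adjusted p = 0.00108), and was -0.99 with a term for runs (adjusted p = 0.157).

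Of 13 genes of the thioredoxin system 2 rose and 7 fell, among them mitochondrial Prdx3 (0.89, SE 0.13, adjusted p = 0.000430) and the methionine sulfoxide reductase Msrb1 (-0.83, SE 0.21, adjusted p = 0.00861), which was -0.65 with a term for runs (adjusted p = 0.324). Of 10 genes of NADPH supply 1 rose and 3 fell. The gene that rose was the mitochondrial isocitrate dehydrogenase Idh2 (0.80, SE 0.17, adjusted p = 0.00289), with 0.81 within the run that holds all 4 groups. The largest called fall was that of Me1, the cytosolic malic enzyme (-1.96, SE 0.60, adjusted p = 0.0257). It was -0.76 without CD Vec replicate 1 (adjusted p = 0.154), and was also not called without CD oncogene replicate 1 (-1.67, adjusted p = 0.0998) or replicate 3 (-2.02, adjusted p = 0.0620). All 4 genes of superoxide and peroxide removal had negative values and 3 were called lower, led by catalase, Cat, which fell from 3111 ± 79.0 to 821 ± 322 CPM (-1.92, SE 0.25, adjusted p = 0.000194).

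Detoxifying enzymes and export pumps, among them known Nrf2 targets, had 8 of 25 higher and 3 lower on CD, a total of 11 of 25 against 35.4% of all genes in either direction. The glutathione transferase Gstm3 rose from 44.0 ± 20.3 to 641 ± 432 CPM (3.86, SE 0.57, adjusted p = 0.000491), and counts of this gene family, whose members are alike in sequence, are uncertain. The export pump Abcc3 fell (-2.24, SE 0.51, adjusted p = 0.00578), with -1.38 under a term for runs (adjusted p = 0.349). Of 10 genes of heme and iron handling 3 rose and 2 fell: the heme transporter Slc48a1 rose (1.68, SE 0.26, adjusted p = 0.000461), and Alas1, the rate-limiting enzyme of heme synthesis in liver, fell (-2.15, SE 0.53, adjusted p = 0.00872), with -1.31 under a term for runs (adjusted p = 0.327).

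With the oncogenes on LPD, 3 genes of these lists were called, all higher: 2 of 25 in detoxification and 1 of 10 in heme and iron, with 6 and 4 at an unadjusted p under 0.05, against 1.32% of all genes called in either direction and 11.1% at an unadjusted p under 0.05. No gene of the other lists was called by edgeR, and 1 in glutathione, 1 in the thioredoxin system, 0 in NADPH supply and 0 in peroxide removal had an unadjusted p under 0.05. The detoxification genes included the export pump Abcc4 (2.61, SE 0.56, adjusted p = 0.0476), which was 1.76 without LPD oncogene replicate 2 (adjusted p = 0.178) and also not called without CD Vec replicates 1 or 3, CD oncogene replicates 2 or 3, or any 1 of the LPD Vec libraries. Its call was also lost without the filter (adjusted p = 0.0705), under the replicate block (adjusted p = 0.0925), in the fit to the 2 groups compared (adjusted p = 0.0804) and with a term for runs (adjusted p = 0.169). Slc48a1 was the gene of heme and iron handling (1.21, SE 0.25, adjusted p = 0.0396), and it was not called without any 1 of the Vec libraries or without LPD oncogene replicates 1 or 2, at 0.92 to 1.31 and adjusted p of 0.0529 to 0.191, or with a term for runs (adjusted p = 0.121). For diet in Vec livers edgeR called 0 in each of the 6 lists, and 2 genes in glutathione, 3 in thioredoxin, 0 in NADPH, 3 in detoxification, 3 in heme and iron and 0 in peroxide removal had an unadjusted p under 0.05, against 0.308% of all genes called and 9.87% at an unadjusted p under 0.05.

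Between diets in oncogene livers 8.66% of all genes were called higher on LPD and 11.3% lower. Of the 4 peroxide genes 3 were higher on LPD, opposite to Srxn1, with Cat at 2086 ± 197 CPM against 821 ± 322 CPM (1.35, SE 0.25, adjusted p = 0.00380) and at 0.90 with a term for runs (adjusted p = 0.153). Glo1, the glyoxalase that uses glutathione to remove methylglyoxal, was higher by 1.26 (SE 0.15, adjusted p = 0.000540) and Ephx1, the microsomal epoxide hydrolase, by 1.56 (SE 0.23, adjusted p = 0.00125). Me1 (1.97, SE 0.60, adjusted p = 0.0399) and the iron exporter Slc40a1 (1.15, SE 0.18, adjusted p = 0.00144) were higher too. The Me1 call was lost in 9 of the 12 fits that leave out a library, those without any 1 of the CD oncogene, LPD Vec or LPD oncogene libraries, at 1.68 to 2.25 and adjusted p of 0.0532 to 0.140.

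Lower on LPD were Prdx3 (-0.69, SE 0.13, adjusted p = 0.00464), Idh2 (-0.96, SE 0.17, adjusted p = 0.00265) and the plasma glutathione peroxidase Gpx3 (-1.81, SE 0.34, adjusted p = 0.00383), which was -1.30 with a term for runs (adjusted p = 0.132). The glutathione transferase Gsta1 (-3.73, SE 0.92, adjusted p = 0.0158) and the transferrin receptor Tfrc (-1.18, SE 0.31, adjusted p = 0.0206) were also lower. Gsta1 was not called without CD oncogene replicate 3 (-2.67, adjusted p = 0.0520), LPD oncogene replicate 1 (-3.62, adjusted p = 0.0589) or LPD oncogene replicate 3 (-3.56, adjusted p = 0.0663). Tfrc was not called without CD oncogene replicate 3 (-0.81, adjusted p = 0.0703) or LPD oncogene replicate 3 (-0.89, adjusted p = 0.0613). Counts by list were 3 higher and 3 lower for glutathione, 0 and 1 for thioredoxin, 2 and 1 for NADPH, 2 and 4 for detoxification, and 1 and 1 for heme and iron. The interaction was called higher and lower in 3 and 2 genes of glutathione, 0 and 1 of thioredoxin, 2 and 0 of heme and iron, and 2 and 0 of peroxide removal, and in no gene of NADPH supply or detoxification, where 3 and 7 had an unadjusted p under 0.05. Over all genes the interaction was called higher in 4.49% and lower in 4.42%.

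Among 9622 genes with a symbol and a mean of at least 5 CPM, the 5 whose log2 CPM ran closest to Nqo1 over the 12 libraries were Cmpk2, Mlkl, Ly6e, Samd9l and Ifit3. Their root mean square differences from Nqo1, after centring each gene on its own mean, were 0.46 to 0.51 on the log2 scale. Srxn1 came at rank 12 (0.55), ahead of G6pdx at rank 77 (0.72) and Hmox1 at rank 541 (0.88). Txnrd1 was at rank 664, Gsr at 953, Gclc at 1778, Nfe2l2 at 2040, Gclm at 6949 and Osgin1 at 8795. The 12 libraries include the 3 CD oncogene livers, in which these 5 genes also had their highest group means.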

How the data were processed

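Bulk liver RNA of 12 mice was measured in 4 groups of 3, with each library assigned by its title and its column name in the labels. The titles call Vec WT and the column names call CD HPD, and the chow reading of the titles was kept. The deposited values are integer read counts per gene, which the authors made by aligning reads to mm10 with HISAT2 and counting with featureCounts. Versions, strand setting and treatment of multiply mapped reads are not given in the sources used here. The labels give a kit that depletes ribosomal RNA and the methods an mRNA kit. Totals were 19476209 to 31990267 counts per library. At this depth a gene with a few counts per library carries large counting error.

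Counts were tested in R 4.3.3 with edgeR 4.0.16 (TMM, filterByExpr, robust quasi-likelihood test, all groups in 1 fit, no covariate), which tested 13947 genes and left out 13232. The biological coefficient of variation was 23.2%. The SE of a difference is its size divided by the root of the F statistic. Symbols came from RefSeq (25275 genes) and GENCODE M21 (18 genes), and 1886 genes had none. Exon lengths came from GENCODE M21. No pair of libraries within a group was a duplicate, with chi-square values per gene of 29.1 to 173.7. Pairs from different groups were not compared in this way. Scripts were tested on simulated data. Alternatives were other scalings, DESeq2 1.42.0, no filter, a replicate block, fits to the groups compared, the runs of dataset numbers, and leaving out each library.

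The 10 genes and the lists were chosen with earlier results of these data known. Besides the 10 genes, the text names the regulators, in each other list and comparison the called gene with the largest positive and the largest negative log2 fold change as far as it is described, and the 5 genes closest to Nqo1, which needed a mean of at least 5 CPM. Albumin, Ikbkg and single markers of other cells (Ly6g, S100a8, S100a9, Hbb-bs, Hba-a1, Alas2 and Krt19) are named beside results they bear on, outside that rule and after their values were seen. Slc7a11, Gpx2 and Ggt1 were at or near the floor of 3 counts in some groups. Gpx2 and Ggt1 were not tested.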

Additional observations from a re-analysis of the deposited data

Results flagged for a closer look

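Under the rule for named genes, 8 genes were singled out because the effect of the oncogenes differed between diets by the test of the interaction itself (edgeR, adjusted over all genes). The interaction is the log2 fold change on LPD minus that on CD. Negative values were found for Srxn1 (-1.96, adjusted p = 0.0221), Mafk (-0.88, adjusted p = 0.0176), Gpx3 (-1.79, adjusted p = 0.0402) and Prdx3 (-0.71, adjusted p = 0.0391). Positive values were found for Bach1 (0.82, adjusted p = 0.0333), Gpx1 (1.38, adjusted p = 0.0243), Cat (1.57, adjusted p = 0.0206) and Alas1 (3.50, adjusted p = 0.0184). None of the 8 kept its call without LPD Vec replicate 2, where adjusted p ran from 0.0567 for Alas1 and 0.0568 for Mafk to 0.114 for Gpx3. Over all genes the interaction calls fell from 1243, which is 8.91% of those tested, to 391 without that library. Only Alas1 kept its call in every other fit that left out a library. Srxn1 and Mafk (adjusted p = 0.0517) lost theirs also without LPD oncogene replicate 3, Cat without that library or LPD Vec replicate 3, and Gpx1 without those or LPD oncogene replicate 1. Bach1 was called in 4 of the 12 such fits, Gpx3 in 4 and Prdx3 in 3. A term for runs takes the CD oncogene level from replicate 3 alone. With a term for runs Srxn1 kept its call (-2.49, adjusted p = 0.0411), and the other 7 lost theirs, at adjusted p of 0.111 to 0.373. Bach1 also lost its call under scaling by total counts (0.65, adjusted p = 0.0813), Prdx3 without the filter on low counts (adjusted p = 0.0546), and Bach1 (adjusted p = 0.0642) and Gpx3 (adjusted p = 0.0648) under the replicate block.

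In Vec livers Alas1, which was not called there, was at 832 ± 542 CPM on CD and 102 ± 63.1 CPM on LPD (SD, n = 3 each, adjusted p = 0.0505 by edgeR), against 187 ± 45.1 and 261 ± 105 CPM in the oncogene livers.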

How the results depend on the processing

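On CD 6 of the 10 genes were called, and 3 under the replicate block, in the fit to the 2 groups compared and with a term for runs of dataset numbers. Scaling by total counts gave 7, with Gclc added, and no filter gave 5, without Txnrd1 (adjusted p = 0.0535). Over all genes calls on CD went from 4933 to 4520, 3014 and 945 in these fits. With the term for runs, replicate 3 alone sets the CD oncogene level. Leaving out 1 library gave 3 to 6. For diet in oncogene livers 2 were called, and 1 without the filter on low counts, under the replicate block and in the fit to the 2 groups compared. Leaving out 1 library gave 1 to 3. In Vec livers DESeq2 and the run that holds all 4 groups gave 1 in place of 0, and for the interaction leaving out 1 library gave 0 to 1. That run has 1 CD library per group, assumed there to vary like the other groups, and which genes passed changed with it: Gclc, Srxn1, Gsr and Osgin1 on CD, Srxn1 and Gsr for diet in oncogene livers, and Osgin1 (-1.34) in place of Srxn1 in the interaction. The replicate numbers did not pair the libraries, since correlations of deviations between libraries of the same number ran from -0.183 to 0.167. Under the block Nqo1 (1.75), G6pdx (0.98) and Txnrd1 (0.42) lost their calls on CD, in the fit to the 2 groups compared Gsr, Txnrd1 and G6pdx, and with the term for runs Hmox1, Gsr and G6pdx. Scaling by total counts only moved the median of all genes on CD from -0.01 to 0.28, on LPD to 0.12 and for the interaction to -0.16, and raised the share of called genes that were higher on CD from 52.8% to 78.8%, on LPD from 87.5% to 93.5%, and lowered it for the interaction from 50.4% to 29.0%. Signs turned in these values, none of them called. Total counts turned Gclm on CD to 0.0825, Hmox1 for diet in Vec to 0.0372 and Nfe2l2 in the interaction to -0.16. The term for runs turned Nfe2l2 (-0.16) and Hmox1 (0.11, from -1.04) in the interaction, Gclc for diet in oncogene livers (-0.11) and Gsr on LPD (-0.0046). The run that holds all 4 groups turned the same values for Nfe2l2 (-0.37), Gclc (-0.11) and Gsr (-0.0209). Leaving out 1 library turned the sign of Nfe2l2 (-0.14 to 0.14), Gclc (-0.40 to 0.19), Txnrd1 (-0.12 to 0.15) and G6pdx (-0.73 to 0.0811) in the interaction, of Srxn1 (-0.30 to 0.0464), Hmox1 (-0.28 to 0.0521) and G6pdx (-0.52 to 0.29) for diet in Vec, of Gclm (-0.0032 to 0.15) and Gsr (-0.0449 to 0.0735) on LPD, and of Txnrd1 (-0.23 to 0.0398) for diet in oncogene livers. The causes were not tested. Counts per library were lowest for Nqo1 (46 to 1013) and G6pdx (52 to 403). Genes with 0 to 2 counts per library, such as Slc7a11 in CD Vec, allow only a lower bound of a fold.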

Other observations

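Some mitotic, fibroblast, pericentral, recruited macrophage and neutrophil markers were called in the comparisons in which Srxn1 was, and some mitotic, pericentral and recruited macrophage markers also with the oncogenes on LPD, where it was not. Over all genes 18.7% were called higher and 16.7% lower on CD, and 1.15% higher and 0.165% lower on LPD. For diet in oncogene livers the shares were 8.66% higher and 11.3% lower, and for the interaction 4.49% and 4.42%. Of 6 recruited macrophage markers 6 were higher on CD, 1 was higher on LPD, 4 were lower for diet in oncogene livers and 1 was lower in the interaction, and of 3 tested neutrophil markers 2 were called in each of these but on LPD, where 0 were called by edgeR and 0 had an unadjusted p under 0.05. The same held for 1 of 4 tested cholangiocyte markers, Krt19, at 2.91 on CD, -2.53 for diet in oncogene livers and -3.10 in the interaction, and not called on LPD (-0.20, adjusted p = 0.913). Hbb-bs was called in these comparisons too (1.97, -2.17 and -2.47) and not on LPD (-0.51, adjusted p = 0.757), and Hba-a1 on CD and for diet in oncogene livers. Sums of 5 proliferating cell markers were 113 to 157 CPM in CD oncogene livers, 15.1 to 45.2 CPM in LPD oncogene livers, 3.70 to 12.5 CPM in CD Vec and 4.94 to 5.85 CPM in LPD Vec. With the oncogenes on LPD 3 of 5 proliferating markers and 5 of 8 pericentral markers were called higher. Sums of 8 stellate cell and fibroblast markers were 229 to 665 CPM in CD oncogene livers and 152 to 192 CPM in LPD oncogene livers. Pericentral hepatocyte markers, which respond to β-catenin, were higher with the oncogenes on CD in 6 of 8 and lower on LPD than on CD in oncogene livers in 5 of 8. The part of these cells in the level of Srxn1 was not tested. Hepatocyte markers had 1 of 6 higher and 2 lower on CD, and 1 higher and 2 lower for diet in oncogene livers. Their sum was 78787 CPM in LPD oncogene replicate 1 and at least 101679 CPM in every other library. Of the remaining marker lists on CD, T and NK cell markers had 1 of 6 higher and 1 lower and endothelial markers 1 of 6 lower, near the shares of all genes. On CD 0 of 3 B cell markers were called by edgeR and 0 had an unadjusted p under 0.05. Endothelial markers also had 1 of 6 higher for diet in oncogene livers and 1 higher in the interaction. For diet in Vec livers 2 of 3 B cell markers had an unadjusted p under 0.05, against 9.87% of all genes, and 0 were called.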
